A study of Mus musculus with 8 samples.

Results

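Adipocyte genes were measured in whole lung RNA of mice dosed with mepenzolate or vehicle. The genes were chosen by name as 10 markers of fat cells, Adipoq, Plin1, Plin4, Cidec, Cidea, Ucp1, Car3, Cfd, Retn and Lep, and each was read from its brightest probe with exactly 1 gene symbol. Of the 10 genes, 9 had such a probe, among 19937 named genes in all, and each of the 9 had 1 probe. Cfd, which encodes adipsin (complement factor D), had none and was not analysed here.

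The study compared lungs of mice given mepenzolate, a blocker of muscarinic acetylcholine receptors, with lungs of mice given vehicle, and asked how the drug lowers inflammation and oxidative stress. There were 4 groups of 2 arrays, namely mepenzolate at 25 h, vehicle at 25 h, mepenzolate at 7 h and vehicle at 7 h after dosing. Mepenzolate was dissolved in phosphate-buffered saline and pipetted into the trachea under chloral hydrate anaesthesia at 500 mg/kg. The labels describe this procedure for mepenzolate alone and give neither the strain, the age, the drug dose nor the genotype of the mice. Nothing in them tells how the lungs were trimmed, or if both arrays of a group were different mice. The p-values therefore cover no more than the scatter among these 8 arrays, part of which can be technical. Replicate arrays correlated at r = 0.988 to 0.993 over all genes, and all 10 markers of alveolar type 2 cells were above the level required for testing, as was each of 8 endothelial markers.

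White fat cells hold a single large lipid droplet and secrete hormones such as adiponectin and leptin, whereas brown fat cells hold many small droplets and burn fatty acids in mitochondria uncoupled by UCP1. The lung itself is not a fat depot, but fat lies next to it in the mediastinum and around the heart and great vessels. Some lung cells also handle lipid, among them alveolar type 2 cells, which make surfactant, and lipid-laden fibroblasts. In bulk RNA, fewer cells of a type and less RNA per cell cannot be told apart.

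The values are log2 expression levels after robust multi-array averaging (RMA), so a difference of 1 is a doubling. RMA gives no detection call and no zero, and levels of different probes cannot be set against each other. The tests covered the 14953 genes with a mean over the 8 arrays at or above log2 5.93. Adipoq, Plin1, Plin4, Cidec, Car3 and Retn passed that level. Cidea, Ucp1 and Lep were dimmer and were not tested, and their differences are given without an adjusted p.

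Promoters of the adipocyte genes are shown because several of these genes moved together from array to array. The RefSeq table (GRCm38.p6) held promoters, 250 bases before to 50 after the start site, of 8 of the 10 genes, all but Car3 and Cidea. Adiponectin, perilipin 1 and resistin are shown as genes that moved together, and leptin for its match to a fat cell factor's motif. Capitals mark matches, on either strand, to the CCAAT box (CCAAT), the TATA box (TATAAA), a nuclear receptor half-site (AGGTCA) or the C/EBP palindrome (TTGCGCAA), and no matches overlapped. The windows are chr16:23146286-23146585 on the plus strand (Adipoq), chr7:79732727-79733026 on the minus strand (Plin1), chr8:3655520-3655819 on the plus strand (Retn) and chr6:29059971-29060270 on the plus strand (Lep).
Adipoq: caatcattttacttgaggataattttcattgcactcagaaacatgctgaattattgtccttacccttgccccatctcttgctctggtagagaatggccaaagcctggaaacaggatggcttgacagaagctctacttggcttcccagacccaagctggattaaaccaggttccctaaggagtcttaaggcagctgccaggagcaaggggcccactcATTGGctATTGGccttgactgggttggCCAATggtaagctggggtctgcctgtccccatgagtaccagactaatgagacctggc
Plin1: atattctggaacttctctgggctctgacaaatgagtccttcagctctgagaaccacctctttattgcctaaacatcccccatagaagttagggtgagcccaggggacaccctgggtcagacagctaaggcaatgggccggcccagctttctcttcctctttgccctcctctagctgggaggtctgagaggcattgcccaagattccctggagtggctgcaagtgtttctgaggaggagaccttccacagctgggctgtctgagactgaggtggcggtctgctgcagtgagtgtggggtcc
Retn: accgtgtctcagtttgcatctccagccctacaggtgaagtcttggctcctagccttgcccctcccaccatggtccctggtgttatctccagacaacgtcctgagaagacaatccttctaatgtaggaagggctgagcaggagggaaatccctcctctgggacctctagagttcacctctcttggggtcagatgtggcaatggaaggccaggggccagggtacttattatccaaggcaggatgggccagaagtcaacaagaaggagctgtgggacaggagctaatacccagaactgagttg
Lep: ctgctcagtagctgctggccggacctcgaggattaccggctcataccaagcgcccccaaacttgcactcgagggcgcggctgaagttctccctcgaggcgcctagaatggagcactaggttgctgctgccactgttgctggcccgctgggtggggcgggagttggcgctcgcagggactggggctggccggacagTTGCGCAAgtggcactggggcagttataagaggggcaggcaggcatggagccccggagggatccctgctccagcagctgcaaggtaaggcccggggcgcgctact
The Adipoq window held 3 matches to the CCAAT box, with first bases at positions -34, -27 and -7 from the start site. The Lep window held the C/EBP palindrome, bound by the C/EBP family of fat cell regulators, at position -55. The Plin1 and Retn windows held none of these letters. Among the genes not printed, Plin4 had a CCAAT box at position -18 and Ucp1 a nuclear receptor half-site at position -14. Of 32851 promoters in the table, 37.4% held the CCAAT box, 13.6% the TATA box, 16.3% the half-site and 0.183% the C/EBP palindrome. 

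Among the secreted factors, adiponectin differed most between single arrays. Resistin differed between arrays too, and its groups did not overlap at 25 h, as for 36.6% of all genes tested. Adipoq, which encodes the fat cell hormone adiponectin, stood at 8.13 and 6.90 on the mepenzolate arrays at 25 h, against 6.97 and 7.03 in vehicle lungs at 25 h. At 7 h it stood at 6.96 and 6.98 in mepenzolate lungs, against 6.09 and 7.25 in vehicle lungs. The other arrays lay close together, while replicate 1 of mepenzolate at 25 h was high and replicate 1 of vehicle at 7 h was low, a 4.12-fold span. The mepenzolate and vehicle groups overlapped at both times.

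Retn encodes resistin, a hormone that fat cells secrete in mice. It stood at 7.91 and 7.76 in mepenzolate lungs at 25 h, against 7.46 and 7.49 in vehicle lungs. At 7 h it stood at 7.49 and 7.74 in mepenzolate lungs, against 7.01 and 7.70 in vehicle lungs. Its extremes fell on the same arrays as those of Adipoq. Its mepenzolate arrays lay above its vehicle arrays at 25 h, as for 14.2% of all genes tested, and its groups overlapped at 7 h. Lep, which encodes the satiety hormone leptin, was dim and ranged over 0.37 log2 units, from 5.26 on replicate 1 of vehicle at 7 h up to 5.63 on replicate 2 of mepenzolate at 7 h.

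Of the lipid droplet proteins, perilipin 1 followed the hormones most closely. Plin1 coats the droplet of fat cells and restrains its breakdown. It stood at 7.08 and 6.78 in mepenzolate lungs at 25 h, against 6.78 and 6.67 in vehicle lungs. The mepenzolate group lay above, as for 14.2% of all genes tested, by a margin smaller than the spread within either group. At 7 h the mepenzolate arrays, at 6.63 and 6.82, lay between the vehicle arrays, at 6.34 and 6.97.

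Plin4, a perilipin of small new droplets, varied less. Its levels were 7.60 and 7.24 in mepenzolate lungs at 25 h, against 7.40 and 7.51 in vehicle lungs. At 7 h they were 7.58 and 7.72 in mepenzolate lungs, against 7.27 and 7.65 in vehicle lungs. The groups overlapped at both times, and the lowest array was replicate 2 of mepenzolate at 25 h.

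Cidec, which fuses droplets into the single large droplet of white fat cells, stood at 8.17 and 7.90 in mepenzolate lungs at 25 h, against 8.02 and 8.02 in vehicle lungs. At 7 h it stood at 7.89 and 7.80 in mepenzolate lungs, against 7.97 and 8.37 in vehicle lungs. It was the single one of the 9 adipocyte genes with both mepenzolate arrays below both vehicle arrays at 7 h, as were 15.5% of all genes tested. Its relative Cidea, which enlarges droplets in brown fat cells, was dim and nearly flat, within 0.17 log2 units over the 8 arrays.

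Car3 encodes carbonic anhydrase 3, an abundant protein of fat cells and of slow skeletal muscle, and had the widest span of the 9 genes. It stood at 10.78 and 9.74 in mepenzolate lungs at 25 h, against 10.07 and 9.64 in vehicle lungs. At 7 h it stood at 9.90 and 10.19 in mepenzolate lungs, against 8.50 and 10.27 in vehicle lungs. The 2 vehicle arrays at 7 h were thus 1.77 log2 units apart, and all groups that were compared overlapped. From the highest to the lowest array the span was 4.87-fold.

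Ucp1, the proton carrier that gives brown fat its heat, did not rise and fall with Adipoq over the arrays. It was dim, at 5.42 and 5.90 in mepenzolate lungs at 25 h, against 5.73 and 5.83 in vehicle lungs. At 7 h it stood at 5.74 and 5.91 in mepenzolate lungs, against 5.75 and 5.69 in vehicle lungs. Its lowest value fell on the array where Adipoq was highest. Some other dim genes were lowest there too, such as the brown fat genes Elovl3 (4.49) and Zic1 (4.76). The dim Cidea and Lep were not, and a course particular to Ucp1 was not tested.

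**Figure D1:**
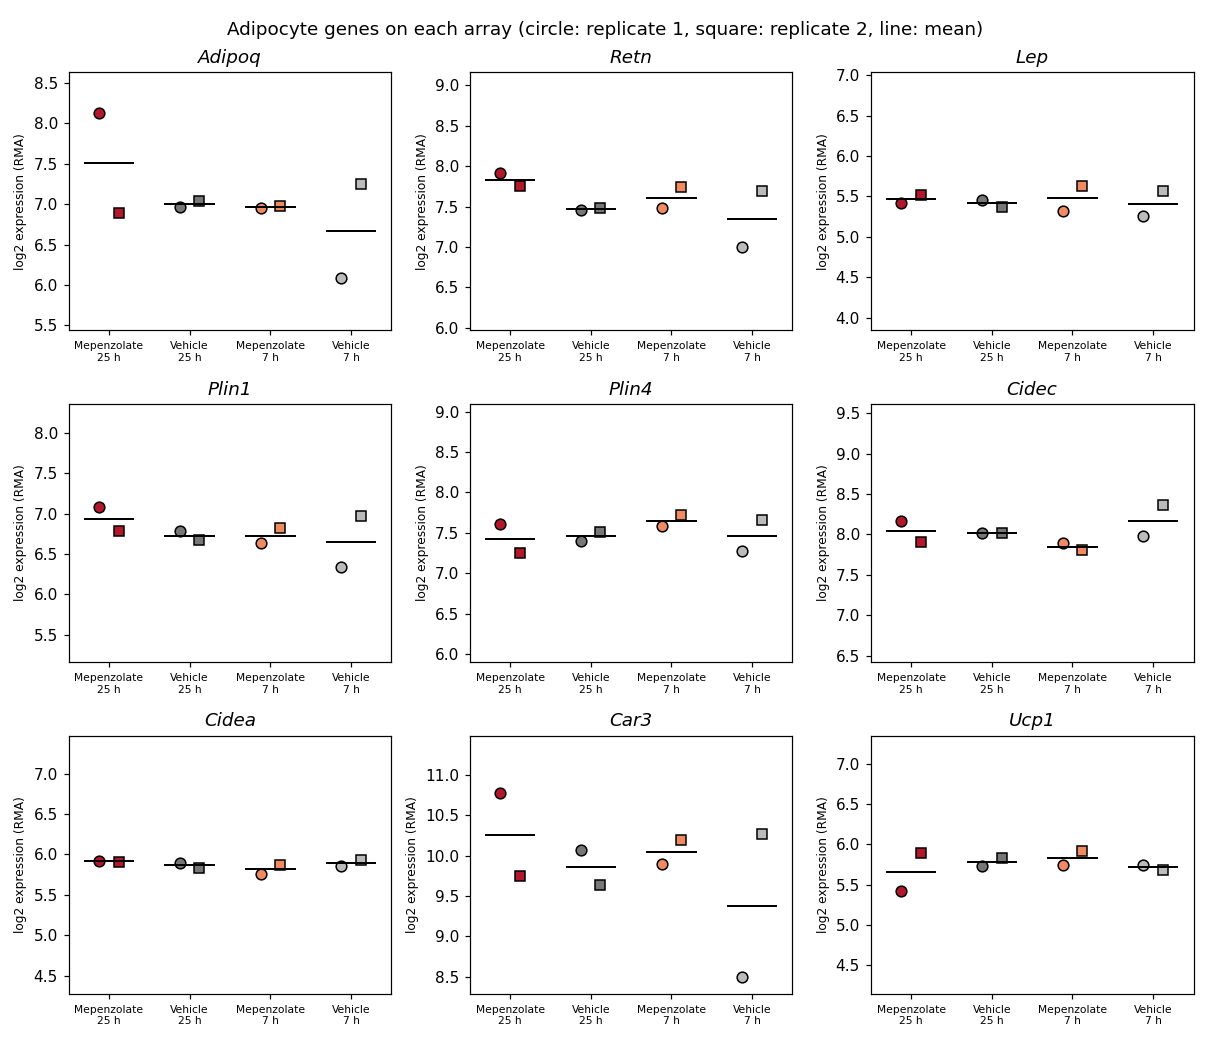
Log2 expression (vertical axis, the same span of 3.2 units in each panel) of the 9 adipocyte genes in the 4 groups (horizontal axis), with circles for replicate 1, squares for replicate 2 and lines for group means. Adipoq and Car3 stand apart on replicate 1 of mepenzolate at 25 h (8.13 and 10.78) and on replicate 1 of vehicle at 7 h (6.09 and 8.50), while Cidea spans 0.17.

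All adipocyte genes but Cidea spanned more than the median gene tested. Adipoq and Car3 spanned at least 1 log2 unit over the 8 arrays, as did 224 of the 14953 genes tested, and the other 7 adipocyte genes spanned less. The median span was 0.56 for the 9 adipocyte genes and 0.31 for all genes tested. Replicate 1 of mepenzolate at 25 h was the highest array for 4 of the 9 adipocyte genes, and for 13.6% of all genes tested. Replicate 1 of vehicle at 7 h was the lowest for 5 of 9, and for 9.77% of all genes tested.

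Replicates within a group differed in the same direction for most adipocyte genes, with little shared direction in vehicle lungs at 25 h. In mepenzolate lungs at 25 h, replicate 1 was above replicate 2 for 7 of 9 genes, with a median difference of 0.27, and all but Ucp1 and Lep shared that direction. In vehicle lungs at 25 h this held for 5 of 9 genes, with a median of 0.0037. In mepenzolate lungs at 7 h replicate 1 was below replicate 2 for all but Cidec, with a median of -0.18. In vehicle lungs at 7 h it was below for all but Ucp1, with a median of -0.39. Across all genes tested these medians lay at 0.026, -0.0036, 0.052 and 0.0041, and 56.3%, 48.6%, 61.8% and 51.2% of genes were higher in replicate 1, in the same order of groups.

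The next question was how closely the adipocyte genes followed each other over the 8 arrays. There were 36 pairs, tested with Pearson's r and an exact permutation test (two-sided), with Benjamini-Hochberg adjustment over the pairs. The permutation treats the 8 arrays as exchangeable and takes no account of the 4 groups. Plin1 followed Car3 (r = 0.951, exact permutation p = 0.000719, adjusted p = 0.0259) and Retn (r = 0.926, exact permutation p = 0.00206, adjusted p = 0.0371), and these 2 pairs passed. By Spearman's rho, 0.881 (exact permutation p = 0.00724) and 0.810 (exact permutation p = 0.0218), each had an adjusted p of 0.196. Without the 2 arrays farthest from the median of Plin1, which are the high and the low array named above, r was 0.743 (exact permutation p = 0.0847) and 0.643 (exact permutation p = 0.235). Both relations were thus weaker on the fewer arrays left, and neither p was under 0.05 there.

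Adipoq stood at r = 0.912 with Car3 (exact permutation p = 0.0121, adjusted p = 0.0868), 0.911 with Plin1 (exact permutation p = 0.00623, adjusted p = 0.056) and 0.843 with Retn (exact permutation p = 0.0212, adjusted p = 0.127). None of these 3 passed after adjustment. Spearman's rho was 0.762 with Car3, 0.762 with Plin1 and 0.476 with Retn (exact permutation p = 0.0368, 0.0368 and 0.243). Without the high and the low array, r was 0.526, 0.661 and 0.110 in the same order. Adipoq with Cidec went the other way, at r = 0.459 with all arrays (exact permutation p = 0.244) and 0.905 without those arrays (exact permutation p = 0.0514). Car3 and Retn stood at r = 0.900 (exact permutation p = 0.00583, adjusted p = 0.056), and at rho = 0.643 (exact permutation p = 0.0962). That r was 0.317 without the same arrays.

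Over all 36 pairs the median r was 0.45, and 28 pairs were positive. Without the 2 arrays farthest from the median of the first gene of each pair, the median r was 0.38 and 30 pairs were positive. All 8 negative pairs involved Ucp1, apart from Plin4 with Cidea (-0.07), while Ucp1 with Lep was positive (0.28). Adipoq and Ucp1 stood at r = -0.66 (exact permutation p = 0.0967, adjusted p = 0.322). With each group's mean taken off, which leaves 4 independent differences between replicates, the median r of the pairs was 0.73, and Plin1 and Car3 stood at 0.988. These last values carry no test.

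**Figure D2:**
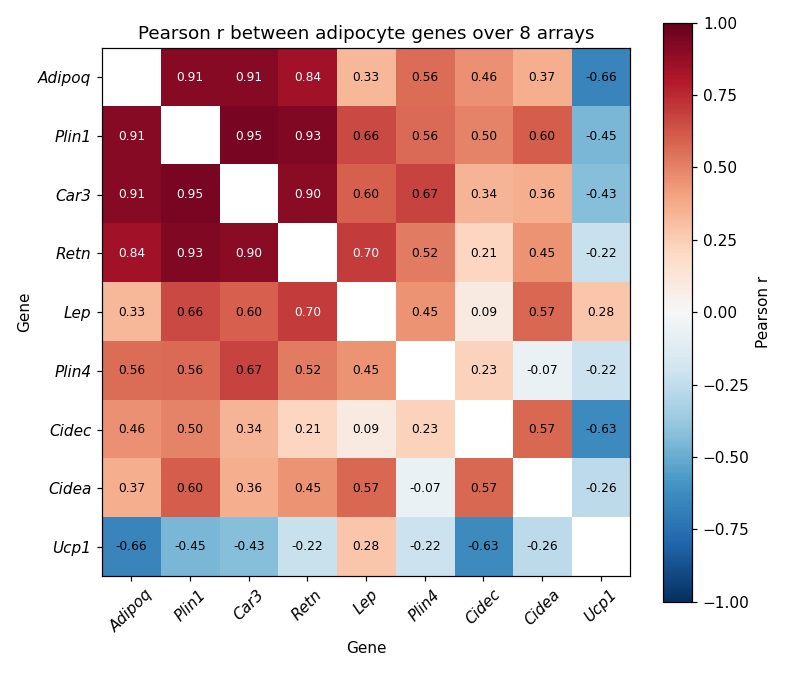
Pearson r over the 8 arrays for each pair of the 9 adipocyte genes, with red for positive and blue for negative values. Adipoq, Plin1, Car3 and Retn form a block at 0.84 to 0.95, and Ucp1, too dim to test, is negative with 7 of the other 8 genes.

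The genes most like Adipoq were sought among 222 other genes tested with a span of at least 1 log2 unit. Fabp4, the fatty acid binding protein of fat cells, macrophages and capillary endothelium, was the most alike (r = 0.96 over 8 arrays). Fabp4 stood at 8.73 and 7.91 in mepenzolate lungs at 25 h, against 7.80 and 7.88 in vehicle lungs, and at 8.01 and 7.98 in mepenzolate lungs at 7 h, against 7.42 and 8.33 in vehicle lungs. Its highest and its lowest array were those of Adipoq, and without the high and the low array r was 0.83.

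Next came Apod, an apolipoprotein of the lipocalin family (0.90), Bex4 (0.82), C1s1, a complement protease gene (0.80), Ly6a2 (0.79), Pck1, which makes glycerol phosphate for fat storage (0.76), and the chemokine gene Ccl8 (0.76). Anxa8, Nme9 and Veph1 followed at 0.65 to 0.66. Of these 9 genes, Apod, Bex4 and Pck1 kept r above 0.7 without the high and the low array (0.86, 0.71 and 0.87), whereas C1s1 and Ccl8 stood at -0.64 and -0.41 there and the other 4 genes at -0.061 to 0.27. Of the 222 genes searched, 7 (3.15%) reached an r of 0.7 with Adipoq. Across all genes tested the median r with Adipoq was -0.0025, and 1.53% reached 0.7. For Ucp1 the most alike was Nptx1, a neuronal pentraxin gene (0.85, 0.74 without the 2 arrays farthest from the median of Ucp1, and 0.46 without the high and the low array of Adipoq), followed by Sectm1a, Snora3, Rxfp4, Siglece and Eif4a3 at 0.51 to 0.62. Of the 222 genes searched, 1 (0.45%) reached an r of 0.7 with Ucp1. Across all genes tested 3.54% did, and the median r with Ucp1 was -0.10.

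**Figure D3:**
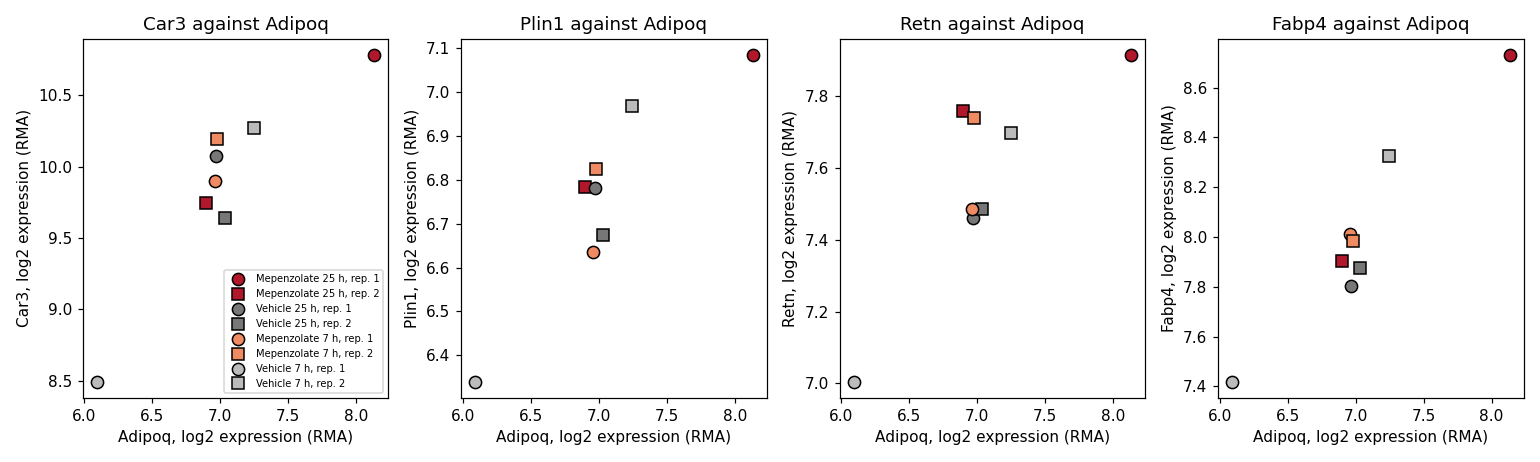
Log2 expression of Car3, Plin1, Retn and Fabp4 (vertical axes) against Adipoq (horizontal axis), with 1 point for each of the 8 arrays, coloured by group. In each panel replicate 1 of mepenzolate at 25 h lies at the upper right (Adipoq 8.13) and replicate 1 of vehicle at 7 h at the lower left (Adipoq 6.09), with the other 6 arrays between.

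Mepenzolate did not change any adipocyte gene detectably at 25 h. Of the 6 genes tested 0 passed limma at an adjusted p of 0.05, as did 0.0% of all 14953 genes, of which 599 had an unadjusted p under 0.05. Mepenzolate minus vehicle was 0.51 ± 0.43 for Adipoq, 0.41 ± 0.53 for Car3, 0.36 ± 0.20 for Retn and 0.21 ± 0.19 for Plin1 (log2 difference ± moderated SE, n = 2 arrays per group, limma adjusted p = 0.979 each). Plin4 stood at -0.032 ± 0.15 and Cidec at 0.020 ± 0.14 (limma adjusted p = 0.991 each). The untested genes stood at 0.048 ± 0.084 (Cidea), 0.051 ± 0.13 (Lep) and -0.12 ± 0.15 (Ucp1).

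In all, 7 of the 9 genes stood higher, with a median difference of 0.051, against -0.023 over all genes tested. Both mepenzolate arrays lay above both vehicle arrays for Plin1, Cidea and Retn, as for 14.2% of all genes tested, and 0 adipocyte genes lay below, as did 22.4% of all genes. Without replicate 1 of mepenzolate, the difference of Adipoq turned to -0.10, that of Car3 to -0.11 and that of Cidec to -0.11, and without replicate 2 Adipoq stood at 1.13, Car3 at 0.92 and Plin1 at 0.36. Plin1 stood at 0.055 without replicate 1. Mesothelial markers, the cells that line the lung surface, stood higher with mepenzolate for 8 of 10 genes at 25 h (median 0.13) and for 8 of 10 at 7 h (median 0.15), and their part in these differences was not tested.

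At 7 h the picture was as uncertain, and 0 of the 6 genes passed (0.0% of all genes tested, 357 of them with an unadjusted p under 0.05). Mepenzolate minus vehicle was 0.67 ± 0.53 for Car3, 0.30 ± 0.43 for Adipoq, 0.26 ± 0.20 for Retn, 0.19 ± 0.15 for Plin4 and 0.075 ± 0.19 for Plin1 (limma adjusted p = 1.00 each). Cidec, at -0.32 ± 0.14, had the smallest unadjusted p of the 6 in this limma fit (0.0486, adjusted p = 1.00). Cidea stood at -0.079 ± 0.084, Lep at 0.063 ± 0.13 and Ucp1 at 0.11 ± 0.15.

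Again 7 of 9 genes stood higher, with a median of 0.11, against -0.013 over all genes tested. Groups were separate for Cidec alone, below vehicle as for 15.5% of all genes tested, and 0 adipocyte genes lay above, as did 8.26% of all genes. Without replicate 1 of vehicle, Adipoq turned to -0.28, Car3 to -0.22, Retn to -0.084, Plin1 to -0.24 and Plin4 to -0.0021, while Cidec stood at -0.52. Without replicate 2 of vehicle, Car3 stood at 1.55 and Adipoq at 0.88. The order of the 4 group means for Adipoq was mepenzolate at 25 h (7.51 ± 0.87), vehicle at 25 h (7.00 ± 0.046), mepenzolate at 7 h (6.97 ± 0.014) and vehicle at 7 h (6.67 ± 0.82; SD, n = 2 each), and no neighbours differed beyond their spread.

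**Figure D4:**
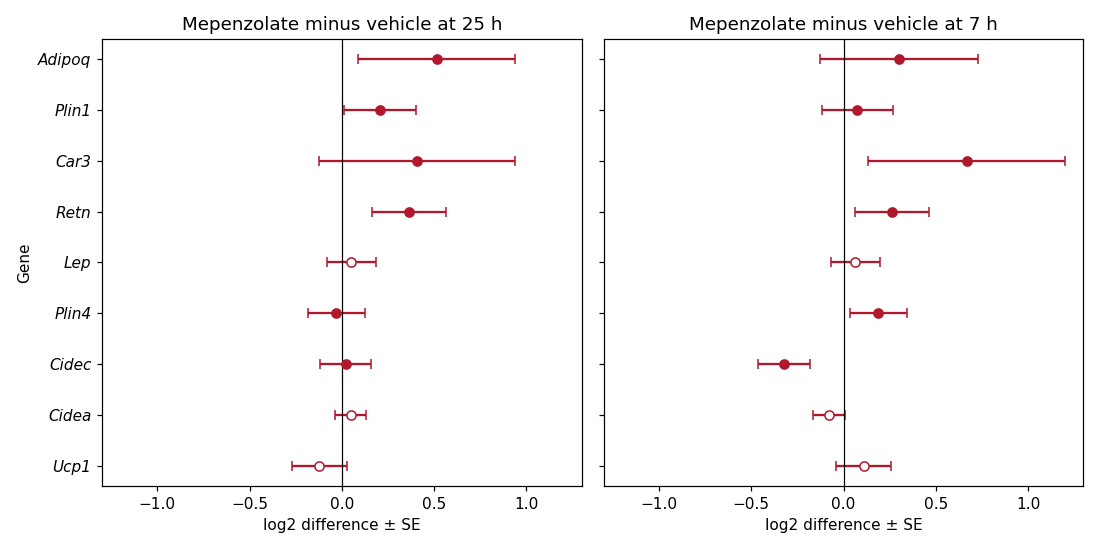
Mepenzolate minus vehicle (log2 difference, horizontal axis) at 25 h and at 7 h for the 9 adipocyte genes, with bars for the moderated standard error and open points for the 3 genes too dim to test. Errors are widest for Adipoq (0.43) and Car3 (0.53).

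The mepenzolate effect did not differ detectably between the times for any of the 6 genes (0 passed, 0.0% of all genes tested, 400 of them with an unadjusted p under 0.05). The difference of effects, 25 h minus 7 h, ran from -0.26 ± 0.75 for Car3 up to 0.34 ± 0.20 for Cidec (limma adjusted p = 1.00 each). Between times, over both treatments, 33 of all genes tested passed (0.221%) and 0 of the 6 adipocyte genes. Here 25 h minus 7 h was 0.44 ± 0.30 for Adipoq, 0.34 ± 0.38 for Car3, 0.17 ± 0.14 for Retn, 0.14 ± 0.14 for Plin1, 0.017 ± 0.098 for Cidec and -0.12 ± 0.11 for Plin4 (n = 4 arrays per time, limma adjusted p = 0.781 to 0.983). The 4 arrays of one time were separate from the 4 of the other for 0 adipocyte genes and for 6.69% of all genes tested. Without both the high and the low array, Adipoq turned to -0.16, Car3 to -0.36 and Plin1 to -0.093, and without replicate 1 of vehicle at 7 h alone Car3 turned to -0.10.

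Most other fat cell genes had a positive r with Adipoq, but their mean level had its extremes on other arrays. It was highest on replicate 2 of vehicle at 7 h (0.136 above its mean over the arrays). It was lowest on replicate 2 of mepenzolate at 25 h (-0.136). Of 22 listed, 21 were measured and 19 tested, and 0 passed in any of the 4 comparisons. With Adipoq, 16 of the 21 had a positive r, where the median r of all genes tested was -0.0025. The r was negative for Pnpla2 (-0.62), Cd36 (-0.46), Trarg1 (-0.40), Slc7a10 (-0.25) and Lipe (-0.20). Among the 4 with the widest spans, besides Fabp4 and Pck1, were Cyp2e1, a cytochrome P450 gene expressed in fat and liver, and Mest, a gene of growing fat cells. Cyp2e1 had its highest value, 9.27, on replicate 2 of vehicle at 7 h and its lowest, 8.14, on replicate 1. Mest was highest on replicate 1 of mepenzolate at 7 h (9.37), so it followed another order. The list's mean level correlated with Adipoq at r = 0.745 (exact permutation p = 0.0283, adjusted p = 0.269 over 19 marker lists), with rho = 0.738 (exact permutation p = 0.0458), and at r = 0.858 without the high and the low array.

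Enzymes of fat synthesis, which lung type 2 cells also use to make surfactant lipid, did not pass either (0 of 16 in each comparison). Stearoyl-CoA desaturase, Scd1, stood at 13.02 and 12.86 in mepenzolate lungs and 12.87 and 12.87 in vehicle lungs at 25 h, against 12.56 and 12.38 in mepenzolate lungs and 12.49 and 12.56 in vehicle lungs at 7 h. Its arrays did not overlap between the times (0.41 ± 0.065, limma adjusted p = 0.0705). Acaca, acetyl-CoA carboxylase, stood at 0.36 ± 0.064 in the same comparison (limma adjusted p = 0.0964), and Dgat2, which completes triglycerides, at -0.57 ± 0.15 (limma adjusted p = 0.209). Thrsp, a regulator of fat synthesis, was highest on the array where Adipoq was highest (7.41, with the next highest at 7.02). Mepenzolate minus vehicle was positive for 10 of the 16 enzymes at 25 h (median 0.028) and for 1 of 16 at 7 h (median -0.11), where the medians of all genes tested were -0.023 and -0.013. The difference of effects was positive for 16 of 16 (median 0.12, against -0.0058 over all genes tested), and each had a limma adjusted p of 1.00. Such a count was not particular to these enzymes. It was 10 of 10 for airway markers (median 0.32), 14 of 18 for cardiac muscle markers and 0 of 7 for liver markers. The mean level of these enzymes stood at r = 0.586 with Adipoq (exact permutation p = 0.135, adjusted p = 0.427), with rho = 0.452 (exact permutation p = 0.267), and at r = 0.872 without the high and the low array.

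Brown fat genes showed little linear relation to Adipoq over all 8 arrays. Of 20 listed, 18 were measured and 16 tested, 0 passed, and 7 of the 18 had a positive r with Adipoq. Mepenzolate minus vehicle was negative for 15 of the 18 at 25 h (median -0.11) and 14 of the 18 at 7 h (median -0.088), against medians of -0.023 and -0.013 over all genes tested. Their mean level stood at r = 0.057 (exact permutation p = 0.913, adjusted p = 0.974), with rho = 0.452 (exact permutation p = 0.267). Without the high and the low array r was 0.650 on the arrays left (exact permutation p = 0.129). Dio2, which activates thyroid hormone in brown fat, stood at 0.47 ± 0.069 for 25 h minus 7 h (limma adjusted p = 0.0521). Cox7a1 and Cox8b, subunits of cytochrome oxidase found in muscle as well as brown fat, spanned 0.88 and 0.73, and Bmp8b spanned 0.77. Fat stroma genes, 10 of 10 tested with 0 passing, correlated with Adipoq at r = 0.787 (exact permutation p = 0.00568, adjusted p = 0.108), with rho = 0.786 (exact permutation p = 0.0279), and at r = 0.837 without the high and the low array. Lum, a matrix proteoglycan gene of fibroblasts, spanned 0.97 and was highest (8.32) on the array where Adipoq was highest.

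Markers of other tissues that can be taken with a lung were set beside the adipocyte genes. Relative to the mean of the 8 arrays, the mean level of the 9 adipocyte genes was 0.29 on replicate 1 of mepenzolate at 25 h and -0.42 on replicate 1 of vehicle at 7 h, and lay between -0.061 and 0.17 on the other 6. On the same 2 arrays mesothelial markers (10 of 10 measured) stood at 0.17 and -0.11, cardiac muscle markers (18 of 18) at 0.18 and 0.10, and skeletal muscle markers (15 of 15) at -0.11 and -0.0022. Mesothelial markers correlated with Adipoq at r = 0.661 (exact permutation p = 0.0616, adjusted p = 0.294), with rho = 0.286 (exact permutation p = 0.501), and at r = -0.467 without those arrays. Cardiac markers stood at 0.253 (exact permutation p = 0.578), with rho = 0.667 (exact permutation p = 0.0831), and at r = 0.628 without those arrays. Skeletal muscle markers stood at r = -0.424 (exact permutation p = 0.344), with rho = 0.048 (exact permutation p = 0.935), and at r = 0.265 without those arrays.

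Of the 18 cardiac markers 13 had a positive r with Adipoq. The 2 with the widest spans differed in sign, the cardiac hormone gene Nppa at r = 0.36 (span 2.41) and Tnnt2, cardiac troponin T, at r = -0.32 (span 1.56). Among lung cell markers, alveolar type 2 genes varied by 0.12 as a list (r = -0.059 with Adipoq, and 0.202 without the high and the low array), and alveolar type 1 genes stood at r = -0.691 with Adipoq (exact permutation p = 0.0619, adjusted p = 0.294), with rho = -0.833 (exact permutation p = 0.0154, adjusted p = 0.265), and at r = -0.563 without the high and the low array. Endothelial markers stood at r = -0.604 (exact permutation p = 0.104), with rho = -0.452 (exact permutation p = 0.267), and at r = -0.129 without those arrays. The remaining lists, among them liver, lymph node, thymocyte, airway, macrophage, blood and nerve markers, stood at r = -0.092 to 0.322. Without the high and the low array these ran from -0.831 for monocyte and neutrophil markers and -0.555 for lymph node and B cell markers up to 0.631 for nerve markers. Of the 19 lists 0 passed after adjustment, with an unadjusted p under 0.05 for 2. The part of these tissues in the adipocyte levels was not tested.

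**Figure D5:**
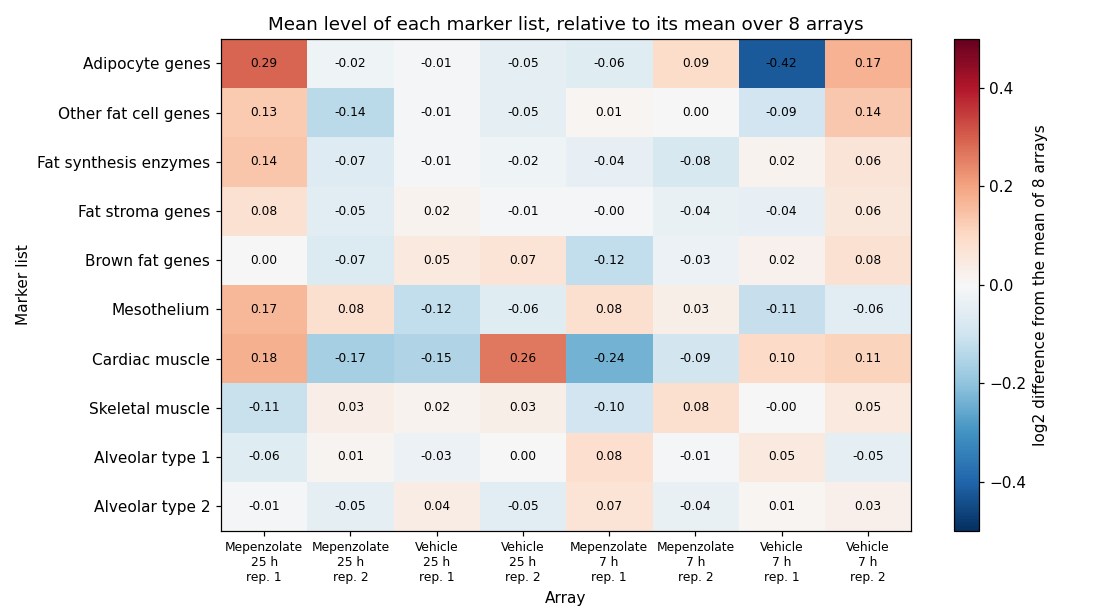
Mean log2 level of 10 marker lists (rows) on each of the 8 arrays (columns), relative to each list's mean over the arrays, with red above and blue below. The adipocyte genes stand at 0.29 on replicate 1 of mepenzolate at 25 h and -0.42 on replicate 1 of vehicle at 7 h, where cardiac muscle markers stand at 0.18 and 0.10.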

How the data were processed

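Total lung RNA was labelled with biotin and hybridised to Affymetrix arrays, 8 in all. The log2 values were deposited by the authors, who had summarised 34760 probes with RMA, per the submitters' processing notes; no version is given in the sources used here. The method corrects background, equalises intensity distributions between arrays and compresses differences of dim genes. The number of arrays limits the precision.

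Probes with 1 gene symbol in the platform annotation (21640, with 1321 of several symbols and 11799 unnamed here) gave 19937 genes, each read from its brightest probe. Genes at or above the 25th percentile of mean level, 14953 of them, were tested with limma 3.58.1 (R 4.3.3). The model gave each group its own mean and all groups a common variance (4 residual and 4.09 prior degrees of freedom), and adjusted by Benjamini-Hochberg over all genes tested. With 2 arrays against 2, no exact permutation p can be smaller than 0.333. Correlations used all 8 arrays, with exact permutation of pairings in Python 3.11.15. On simulated data for the 25 h comparison (14953 genes), limma recovered 100% of genes changed by log2 1. The changed genes were drawn at random from all genes tested, each with its own moderated spread. Many genes were changed at once there, some by more than log2 1, which makes the adjusted p easier to pass. That share therefore does not carry over to the adipocyte genes. It applies least to Adipoq and Car3, whose moderated SE was 0.43 and 0.53 at 25 h.

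The adipocyte genes, the marker lists and the tests were chosen with earlier results of these data known. Named genes were the adipocyte genes, any list gene that passed, the 4 widest of each fat-related list, the 2 widest of each other list, and those most like Adipoq (10) and Ucp1 (6). Alternatives were a replicate block, other filters, quantile normalization, median centring, a trended robust variance, array weights, the mean of probes, the compared groups alone, and leaving out each array. Leaving out both arrays at the ends of the Adipoq order was chosen after seeing the data.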

Additional observations from a re-analysis of the deposited data

Results flagged for a closer look

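Adipoq on replicate 1 of mepenzolate at 25 h lay far from the other 3 arrays of that time, at 8.13 against a nearest value of 7.03. The gap was 0.889 of the whole range of the 4 arrays, above Dixon's critical value for 4 samples. Each of the 9 adipocyte genes was examined at both times, 18 sets of 4 arrays in all, and this was the single one past the critical value. Chance gives about 1 such set in 20. The next largest gap was that of Car3 at 7 h (0.793 of the range), where replicate 1 of vehicle was low.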

How the results depend on the processing

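No adipocyte gene passed under any alternative (smallest adjusted p = 0.352). Of 394 member differences recomputed, 363 kept their direction and 31 changed sign, 25 of these on leaving out 1 array. Many of the 394 could not change. The replicate block, the filters, the trended robust variance, array weights, the mean of probes and the compared groups alone left each difference as it was. So did leaving out an array outside the comparison. The count of kept directions is therefore no measure of stability. The number of all genes called was 0 in each mepenzolate comparison. It was 1 with a replicate block at 25 h, and with 1 array left out it ran from 0 to 1 at 25 h, 0 to 2 at 7 h and 0 to 2 for the difference between times. For 25 h minus 7 h it was 33, against 73 with a replicate block, 72 with a stricter filter, 123 with a trended robust variance, 9 without both arrays at the ends of the Adipoq order, and 11 to 34 with 1 array left out. Replicate numbers gave deviations that correlated at -0.021 to 0.396 between groups, and were not taken as pairing the arrays. The number of adipocyte pairs with a passing correlation was 2, against 4 with median centring, 0 by Spearman's rho and 0 to 3 with 1 array left out. The 19 marker lists gave 0 under each alternative run.

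With 1 array left out, mepenzolate minus vehicle at 25 h ran from -0.11 to 0.92 for Car3, -0.11 to 0.15 for Cidec, -0.21 to 0.15 for Plin4 and -0.10 to 1.13 for Adipoq. At 7 h it ran from -0.22 to 1.55 for Car3, -0.084 to 0.61 for Retn, -0.0021 to 0.38 for Plin4, -0.28 to 0.88 for Adipoq and -0.24 to 0.39 for Plin1. The difference of effects ran from -1.15 to 0.63 for Car3, -0.24 to 0.45 for Retn, -0.41 to 0.83 for Adipoq and -0.18 to 0.44 for Plin1. For 25 h minus 7 h the ranges were -0.10 to 0.79 for Car3, -0.081 to 0.12 for Cidec, -0.0010 to 0.34 for Retn and -0.018 to 0.30 for Plin1. Without both arrays named above, this comparison gave -0.36 for Car3, -0.15 for Cidec, -0.040 for Retn, -0.16 for Adipoq and -0.093 for Plin1, and median centring gave -0.0040 for Cidec. Where 1 array of a group remained, its spread was taken from the other groups. A fit on the compared groups alone could not be made for the difference of effects and for 25 h minus 7 h, which use all groups. Only 8 arrays and the weak signal of Cidea, Ucp1 and Lep limit what could be seen.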
